A study of Mus musculus with 32 samples.

Results

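The 9 genes described here, Adar, Apobec3, Xrn1, Isg20, Pnpt1, Mov10, Helz2, Cmpk2 and Nt5c3, encode enzymes that edit, degrade or unwind RNA or handle pyrimidine nucleotides. They were chosen by name, matched to the Ensembl identifiers of the tables, and make up 9 of the 23035 genes counted in footprints. Neural stem cells (NSCs) were isolated from the ventricular-subventricular zone (vSVZ) of male C57BL/6 mice aged 8 to 12 weeks, grown ex vivo, and treated 48 h after seeding with IFN-β or its vehicle. Cells were lysed after 2 h or 14 h, with cycloheximide added just before collection in every group. Ribosome-protected fragments (footprints) in the coding sequence (CDS) and total RNA of the same lysates were sequenced, which gave 4 libraries of each kind in each of the 4 groups, 32 libraries in all. All cells were wild type, and the vehicle cultures of each time point are the control of that time point. The cultures differ between the times, with replicates 2, 3, 5 and 6 at 2 h and replicates 1 to 4 at 14 h.

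Type I interferon acts through its receptor and JAK kinases on transcription factors that bind the interferon-stimulated response element in the promoters of interferon-stimulated genes (ISGs). Many of the products act on RNA or on the nucleotides that viruses need, and the 9 genes belong to 4 such roles. Adar and Apobec3 deaminate bases, Xrn1, Isg20 and Pnpt1 are RNA exonucleases, Mov10 and Helz2 are helicases, and Cmpk2 and Nt5c3 work on pyrimidine nucleotides.

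Since most of these genes rose with IFN-β, short stretches of their promoters are shown, taken from RefSeq (build GRCm38.p6). The 9 genes have 15 promoter windows there, each with 250 bases before and 50 bases from the start site, and all 15 matched the genome. A response element of the interferon type was searched on both strands as GAAANNGAAA, and in a looser form as GAANNGAAA. The 2 forms can overlap but differ by 1 base of spacing, so a match to the first need not be one to the second. The first form occurred in 3.44% of all 32851 windows of this length, the second in 7.52% and either in 10.4%. Of the 15 windows 1 held the first form and 4 the second, in 4 genes. The stretches that hold a match run 5′ to 3′ on the strand of the gene, with the match in capitals (as its reverse complement where it lies on the opposite strand).
Adar, chr3:89730736-89730765, plus strand, 28 bases after the third annotated start: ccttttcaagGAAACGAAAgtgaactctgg
Apobec3, chr15:79892258-79892287, plus strand, 140 bases before the start, match on the opposite strand: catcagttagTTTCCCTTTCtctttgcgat
Apobec3, chr15:79892428-79892457, plus strand, 37 bases after the start, match on the opposite strand: ttggcccgggaggtcagTTTCACTTCtggg
Pnpt1, chr11:29130668-29130697, plus strand, 66 bases before the start: aggctccacgGAAACGAAActgcgtccgac
Helz2, chr2:181241991-181242020, minus strand, 17 bases after the start: cccaggggcaGAAACGAAActgatcgctac
The matches in Adar, Pnpt1 and Helz2 spell the same 9 letters. In the windows of the other 5 genes, Xrn1, Isg20, Mov10, Cmpk2 and Nt5c3, these letters do not occur. A match is a description of the letters, and binding was not measured.

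Footprint libraries held 4956144 to 9361609 counts at 2 h and 2956297 to 10505108 at 14 h, and total RNA libraries 3992402 to 7877753 and 1370008 to 2737111. Levels are given in CPM, counts per 1000000 of the library total times its TMM factor. All 14 NSC markers had footprints in every group, with a summed level of 12315 to 19336 CPM, most of it from Vim, Fabp7 and Nes. Single markers stood apart from this sum, with untested group means at 2 h of 725 CPM with vehicle and 367 CPM with IFN-β for Olig2, 23.2 and 12.9 CPM for Nr2e1, 13.3 and 2.71 CPM for Hes5, and 30.8 and 162 CPM for Gfap. Of 14 microglia and leukocyte markers, Aif1, Cx3cr1, C1qa, C1qc and Tyrobp were at 0 in every group. Summed over 9 markers, neuron and neuroblast genes at 14 h stood at 1106 to 1208 CPM with vehicle and 1465 to 1632 CPM with IFN-β. Map2 made up most of this sum and of its shift (group means of 1087 and 1487 CPM), while Stmn2 stood at 5.10 and 2.67 CPM, Rbfox3 at 0.796 and 0.289 CPM, Syt1 at 0.845 and 0.484 CPM and Snap25 at 2.95 and 2.47 CPM. The rest were higher with IFN-β, with Tubb3 at 47.1 and 55.1 CPM and Gad1 at 6.00 and 6.31 CPM. Dcx stood at 0.625 and 0.754 CPM and Dlx2 at 1.32 and 1.63 CPM. The 7 oligodendrocyte markers stood at 96.4 to 126 and 218 to 294 CPM there, most of it from Cnp (107 and 248 CPM). The part of these shifts in the results at 2 h and at 14 h was not tested.

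Footprints of 7 of the 9 genes rose within 2 h of IFN-β and those of 8 had risen at 14 h, while Nt5c3 fell slightly at 14 h. A call is an adjusted p under 0.05 (edgeR, quasi-likelihood F-test, Benjamini-Hochberg over all genes tested). Over all genes tested, 5.25% were called higher at 2 h (7.25% in either direction, 878 of 12104 genes, and 3538 with the replicate number as a block), and 26.2% were called higher and 26.3% lower at 14 h. The median log2 fold change (IFN-β over vehicle) of the 9 genes was 1.42 at 2 h and 2.57 at 14 h, beside -0.02 and 0.00 for all genes. The single values ran from 0.09 to 5.53 at 2 h and from -0.32 to 7.22 at 14 h. In 7 genes at 2 h and 8 at 14 h every IFN-β library lay above every vehicle library, which held for 7.68% and 23.4% of all genes. Isg20 and Helz2 had fewer than 10 footprints in each vehicle library and passed the filter on low counts only through the IFN-β libraries, so that they could enter the counts only by differing. In bulk cultures, a change in the number of cells that express a gene and a change per cell cannot be told apart.

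**Figure D1:**
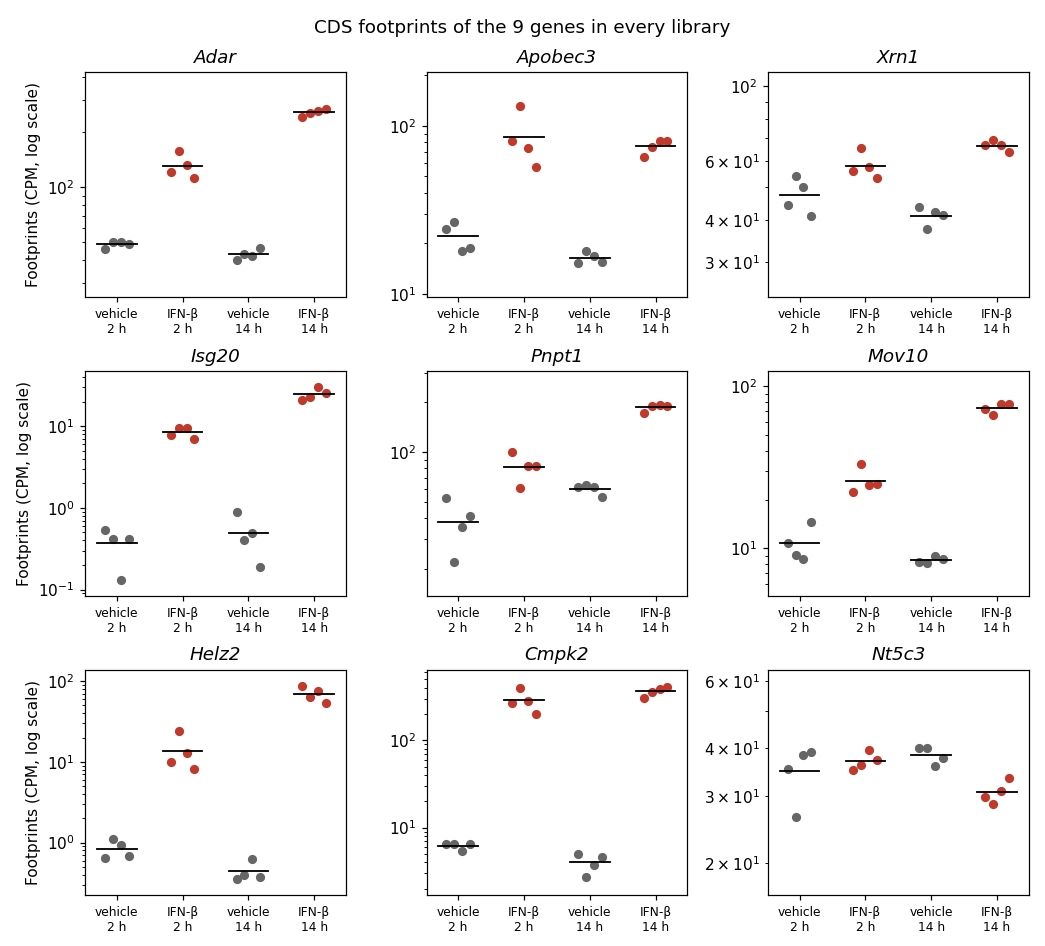
Footprints in CPM (log axis) for each of the 9 genes, 1 point per library and a bar at the mean of the 4 libraries of a group. At 14 h all IFN-β libraries lie above the vehicle libraries in 8 genes, and below them in Nt5c3.

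Adar encodes ADAR1, which converts adenosine to inosine in double-stranded RNA and is made as a long interferon-inducible and a short constitutive protein. The counts are per gene and do not separate these forms. After 2 h its footprints were 46.0, 50.1, 50.2 and 49.1 CPM in the vehicle libraries and 121, 158, 132 and 112 CPM in the IFN-β libraries. After 14 h the levels were 40.0, 43.4, 42.1 and 46.5 CPM with vehicle and 243, 255, 263 and 268 CPM with IFN-β. The groups did not overlap at either time, and the 4 libraries of a group lay close together except for the IFN-β group at 2 h. Adar rose by a log2 fold change of 1.42 (SE 0.11, adjusted p = 4.94e-05, n = 4 per group) at 2 h and 2.57 (SE 0.06, adjusted p = 1.17e-12) at 14 h. The gene lies on chr3:89715022-89753446, plus strand, and shares 1365 exonic bases with Chrnb2 on the opposite strand, which had at most 26 footprints in a library.

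Apobec3, the only Apobec3 gene of the mouse, encodes a cytidine deaminase that restricts retroviruses. At 2 h its footprints were 24.4, 26.9, 17.9 and 18.7 CPM with vehicle and 80.8, 131, 74.3 and 56.9 CPM with IFN-β. The levels at 14 h were 15.3, 18.1, 16.8 and 15.5 CPM with vehicle and 64.8, 74.8, 81.8 and 80.7 CPM with IFN-β. The spread of the IFN-β libraries was wide at 2 h, where replicate 3 stood highest and replicate 6 lowest, and still all of them lay above the vehicle libraries. The log2 fold change was 1.96 (SE 0.26, adjusted p = 0.00126) at 2 h and 2.20 (SE 0.09, adjusted p = 3.61e-10) at 14 h. Apobec3 lies on chr15:79891659-79915906, plus strand. It shares 676 exonic bases with D730005E14Rik on the same strand and 100 with Cbx7 on the opposite strand.

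Of 13 other listed deaminases and cofactors, 4 could be tested in footprints, and 1 of them rose and 1 fell at 14 h. Adarb1, which encodes the related editing enzyme ADAR2, stood at 7.96 ± 0.899 CPM with vehicle and 7.36 ± 0.862 CPM with IFN-β at 14 h (SD, n = 4; log2 fold change -0.10, adjusted p = 0.606). None of the 4 was called at 2 h in edgeR, DESeq2 or limma-voom, with 1 at an unadjusted p under 0.05 in edgeR. At 14 h Apobec1, the deaminase that edits the Apob transcript, rose from 4.26 ± 0.826 to 17.9 ± 2.22 CPM (log2 fold change 2.07, SE 0.15, adjusted p = 9.36e-08). The tRNA deaminase gene Adat1, named after its value was seen, fell by 0.70 (adjusted p = 0.00298).

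Xrn1, the cytoplasmic exonuclease that degrades decapped mRNA from its 5′ end, changed the least among the genes that rose. After 2 h its footprints were 44.5, 54.1, 50.2 and 41.1 CPM with vehicle and 56.0, 65.6, 57.4 and 53.4 CPM with IFN-β. At 14 h they were 43.8, 37.6, 42.1 and 41.3 CPM with vehicle and 66.9, 69.0, 66.9 and 63.6 CPM with IFN-β. The groups overlapped at 2 h and were apart at 14 h. The log2 fold change at 2 h was 0.29 (SE 0.11, 95% interval 0.05 to 0.54, adjusted p = 0.191) and was not called, and that at 14 h was 0.69 (SE 0.06, adjusted p = 1.37e-06). Within each replicate number at 2 h, IFN-β exceeded vehicle by 1.14- to 1.3-fold. In a fit blocked on replicate number (footprint libraries are paired by number), Xrn1 was called at 2 h (log2 fold change 0.30, adjusted p = 7.56e-04). Fitting all 16 footprint libraries together also brought it past the threshold (0.29, adjusted p = 0.0412). Xrn1 lies on chr9:95954760-96057803, plus strand, opposite C78334 and Gm16794, with which it shares 604 and 184 exonic bases.

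Isg20 encodes an exonuclease that degrades single-stranded RNA from the 3′ end and was barely translated without IFN-β. The vehicle libraries held 5, 3, 1 and 3 footprints at 2 h and 5, 4, 4 and 2 at 14 h. The IFN-β libraries held 62, 46, 68 and 42 footprints at 2 h and 63, 160, 202 and 238 at 14 h. In CPM the vehicle libraries lay at 0.132 to 0.532 and the IFN-β libraries at 6.97 to 9.49 at 2 h, and at 0.190 to 0.897 and 21.2 to 29.9 at 14 h. On the log2 scale the change was 4.41 (SE 0.30, adjusted p = 1.78e-05) at 2 h and 5.78 (SE 0.24, adjusted p = 4.97e-10) at 14 h, and its size rests on these few vehicle footprints. Isg20 lies on chr7:78913424-78920396, plus strand, with no annotated gene opposite it.

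Pnpt1 encodes polynucleotide phosphorylase, an exonuclease of mitochondria that works from the 3′ end. At 2 h its footprints were 53.0, 21.8, 35.4 and 41.6 CPM with vehicle and 100.0, 61.1, 82.9 and 82.6 CPM with IFN-β. After 14 h the levels were 61.5, 63.3, 62.0 and 53.9 CPM with vehicle and 173, 188, 193 and 190 CPM with IFN-β. The vehicle libraries spread widely at 2 h, and the culture that was lowest with vehicle, replicate 3, was also lowest with IFN-β. Within a replicate number the ratio of IFN-β to vehicle was 1.89 to 2.80 at 2 h and 2.81 to 3.52 at 14 h. Pnpt1 rose by 1.11 (SE 0.25, adjusted p = 0.0250) at 2 h and 1.63 (SE 0.07, adjusted p = 3.37e-10) at 14 h on the log2 scale. Without a replicate block, the call at 2 h was lost without vehicle replicate 5 (adjusted p = 0.0846) or 6 (0.0633), or without IFN-β replicate 2 (0.0872), 5 (0.0825) or 6 (0.0714), with log2 fold changes of 1.00 to 1.15. In the fit blocked on replicate number with all libraries, the change at 2 h was 1.12 (SE 0.07, adjusted p = 2.39e-12). Pnpt1 lies on chr11:29130744-29161828, plus strand.

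Genes of the general RNA decay machinery were followed as lists of related genes. Over all genes tested, 5.25% were called higher at 2 h, and 26.2% higher and 26.3% lower at 14 h. The counts of this and the other related lists stand beside these shares. Of 21 genes of decapping and 5′ to 3′ decay, 1 was called higher at 2 h, and 3 higher and 5 lower at 14 h (median log2 fold change 0.06 and -0.09). The 1 gene at 2 h was Dcp2, the catalytic subunit of the decapping enzyme, at 31.1 ± 6.02 CPM with vehicle and 65.8 ± 6.11 CPM with IFN-β (SD, n = 4; log2 fold change 1.08, adjusted p = 0.00154), and its change at 14 h was 0.42 (adjusted p = 9.91e-04). Xrn2, the nuclear relative of Xrn1, changed by 0.10 at 2 h (adjusted p = 0.824) and rose by 0.31 at 14 h (adjusted p = 5.66e-04). The RNA-binding ring subunits Lsm2, Lsm6 and Lsm5 fell at 14 h, with log2 fold changes of -1.17, -0.74 and -0.72, and Dcp1b rose (0.49).

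Of 27 tested genes of the RNA exosome, the SKI complex and the deadenylases, none was called at 2 h in edgeR, DESeq2 or limma-voom (1 at an unadjusted p under 0.05 in edgeR), and 3 rose and 12 fell at 14 h (median -0.15). The exosome subunits Exosc8 and Exosc2 and the exosome nuclease Dis3 fell by 1.31, 1.13 and 1.00 on the log2 scale at 14 h. The SKI complex genes Skiv2l (0.39) and Ttc37 (0.19) and the deadenylase gene Cnot6l (0.31) rose. Of 9 tested exonucleases of the Isg20 type, Trex1, which degrades cytosolic DNA, rose at both times, from 4.96 ± 1.72 to 124 ± 37.6 CPM at 2 h and from 5.00 ± 0.496 to 158 ± 10.0 CPM at 14 h (log2 fold changes 4.63 and 5.00). Eri1, Eri2 and Isg20l2 were among 4 that fell at 14 h, with log2 fold changes of -1.05, -0.74 and -0.43.

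Most other genes of mitochondrial RNA turnover were lower at 14 h. None of 15 was called at 2 h in edgeR, DESeq2 or limma-voom, and 0 were at an unadjusted p under 0.05 in edgeR, while 2 rose and 11 fell at 14 h (median -0.26). Fastkd3, Fastkd2 and Fastkd1, which bind mitochondrial transcripts, changed by -0.54, -0.48 and -0.42, and Fastk (0.47) and Slirp (0.21) rose. These genes were tested one by one, and the difference between Pnpt1 and them was not tested.

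Mov10 encodes a helicase that moves along RNA from 5′ to 3′ and restricts retroelements. After 2 h its footprints were 10.8, 9.09, 8.61 and 14.5 CPM with vehicle and 22.2, 33.1, 24.4 and 25.1 CPM with IFN-β. The levels at 14 h were 8.25, 8.08, 8.92 and 8.55 CPM with vehicle and 72.2, 66.2, 78.0 and 78.2 CPM with IFN-β. All IFN-β libraries lay above the vehicle libraries at both times, and the vehicle libraries at 14 h were nearly the same. The log2 fold change was 1.28 (SE 0.19, adjusted p = 0.00270) at 2 h and 3.12 (SE 0.09, adjusted p = 5.13e-12) at 14 h. Mov10 lies on chr3:104794836-104818563, minus strand, with no annotated gene opposite it.

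Helz2 encodes a large helicase with zinc fingers that is known as a coactivator of nuclear receptors. Its vehicle libraries held 6, 8, 7 and 5 footprints at 2 h and 2, 4, 5 and 4 at 14 h. The IFN-β libraries held 80, 117, 93 and 49 footprints at 2 h and 259, 439, 503 and 500 at 14 h. In CPM the vehicle libraries lay at 0.638 to 1.12 and the IFN-β libraries at 8.13 to 23.9 at 2 h, and at 0.359 to 0.619 and 53.7 to 87 at 14 h. On the log2 scale the change was 4.01 (SE 0.41, adjusted p = 2.95e-04) at 2 h and 7.22 (SE 0.24, adjusted p = 2.78e-11) at 14 h, the latter on 15 vehicle footprints in all. Helz2 lies on chr2:181227615-181242027, minus strand.

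Among 7 tested helicases related to Upf1, the factor of nonsense-mediated decay, 1 was called higher at 2 h, and 2 rose and 4 fell at 14 h (median -0.06 and -0.21). Znfx1, a helicase that binds viral RNA, rose from 43.4 ± 6.69 to 259 ± 58.1 CPM at 2 h and from 30.1 ± 2.82 to 311 ± 21.9 CPM at 14 h (log2 fold changes 2.58 and 3.36). Ighmbp2 rose by 0.35 at 14 h. Dna2, a nuclease and helicase of DNA replication, changed by -1.93, Zgrf1 by -0.72 and Aqr, a spliceosome component, by -0.41, all called lower.

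Cmpk2 encodes a mitochondrial kinase that phosphorylates UMP and CMP, and it had the largest response of the 9 genes at 2 h. At 2 h its footprints were 6.49, 6.44, 5.43 and 6.48 CPM with vehicle and 270, 398, 280.0 and 202 CPM with IFN-β. At 14 h they were 5.02, 2.69, 3.72 and 4.56 CPM with vehicle and 309, 354, 386 and 404 CPM with IFN-β. The lowest IFN-β library exceeded the highest vehicle library 31.2-fold at 2 h and 61.4-fold at 14 h. The log2 fold change was 5.53 (SE 0.23, adjusted p = 1.01e-06) at 2 h and 6.53 (SE 0.14, adjusted p = 3.75e-13) at 14 h. Cmpk2 lies on chr12:26469204-26479837, plus strand, and its neighbour Rsad2 on the minus strand, with 12751 bases between them. Rsad2 encodes viperin, which turns CTP into a chain-terminating nucleotide. Its footprints rose from 6.89 ± 3.18 to 732 ± 283 CPM at 2 h and from 1.46 ± 0.437 to 1501 ± 132 CPM at 14 h (log2 fold changes 6.73 and 10.06).

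Nt5c3 encodes a nucleotidase that removes the phosphate from CMP and UMP, and was the only one of the 9 to fall. After 2 h its footprints were 35.3, 26.4, 38.4 and 39.1 CPM with vehicle and 35.1, 36.2, 39.5 and 37.3 CPM with IFN-β. After 14 h the levels were 40.2, 40.0, 36.0 and 37.8 CPM with vehicle and 29.9, 28.6, 31.0 and 33.4 CPM with IFN-β. The groups overlapped at 2 h, where vehicle replicate 3 stood below the rest, and at 14 h every IFN-β library lay below every vehicle library, as in 23% of all genes. On the log2 scale the change was 0.09 (SE 0.13, 95% interval -0.19 to 0.38, adjusted p = 0.827) at 2 h and -0.32 (SE 0.08, adjusted p = 0.00346) at 14 h. Under the alternatives tried, the value at 14 h lay between -0.37 and -0.28 with an adjusted p of at most 0.0231. Nt5c3 lies on chr6:56882400-56923932, minus strand.

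Of the closest relatives of Cmpk2 and Nt5c3, Cmpk1 was not called at either time and Nt5c3b fell at 14 h. Cmpk1, the cytosolic UMP-CMP kinase, stood at 71.7 ± 6.12 CPM with vehicle and 64.3 ± 2.25 CPM with IFN-β at 14 h (log2 fold change -0.17, adjusted p = 0.0632), and changed by 0.06 at 2 h (adjusted p = 0.863). Nt5c3b, the relative of Nt5c3, fell from 51.5 ± 4.12 to 39.6 ± 3.29 CPM at 14 h (log2 fold change -0.40, adjusted p = 8.95e-04) and changed by -0.09 at 2 h (adjusted p = 0.864). Of 31 tested genes of pyrimidine nucleotide metabolism, 3 rose at 2 h, and 5 rose and 17 fell at 14 h (median log2 fold change -0.07 and -0.45). The 3 that rose at 2 h were Rsad2, Samhd1, which hydrolyses dNTPs (0.81), and Upp1, uridine phosphorylase (0.68), and at 14 h these changed by 10.06, 2.23 and 1.12. Rrm2, a subunit of ribonucleotide reductase, and Dut and Tk1, enzymes of dUTP removal and thymidine salvage, fell by 2.11, 1.88 and 1.69 on the log2 scale at 14 h.

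**Figure D2:**
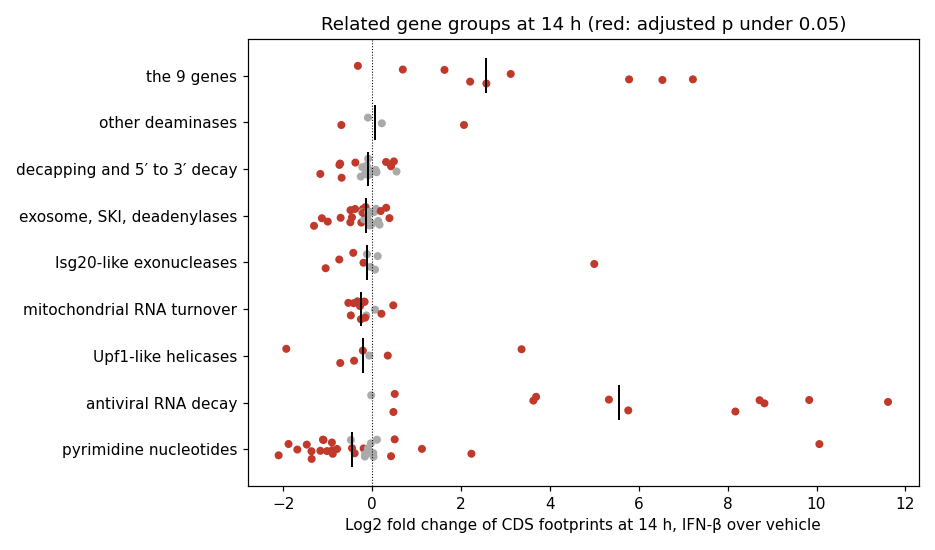
Log2 fold change of CDS footprints at 14 h (IFN-β over vehicle) for each tested gene of the 9 genes and of 8 related groups, 1 point per gene, red where the adjusted p was under 0.05, with a black bar at the median. The medians of the decay, exosome, mitochondrial and pyrimidine groups lie between -0.09 and -0.45. That of the 9 genes lies at 2.57, and that of the antiviral RNA decay group is higher, at 5.54.

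Most genes of a list of antiviral RNA decay and RNA sensing rose, with 7 of 10 tested called higher at 2 h and 11 of 12 at 14 h. The medians were 2.36 and 5.54, the latter the same with 3 genes at a lower bound. The list also holds RNA sensors and a ubiquitin ligase gene, so these values do not describe decay enzymes alone. Khnyn, N4bp1 and Zc3h12c, named after their values were seen, changed least at 14 h. Their log2 fold changes were 0.51, 0.48 and -0.02, the last not called (adjusted p = 0.824). Among the genes averaging at least 50 footprints, the RNA sensors Ifih1 (log2 fold change 4.75) and Ddx58 (4.20) and the ubiquitin ligase gene Trim25 (3.77) rose most at 2 h. Dhx58, at a mean of 16.1 footprints and named at 2 h after its value was seen, rose by 4.32 (SE 0.61, adjusted p = 0.00201). It had 1 to 3 footprints in each vehicle library and 14 to 49 in each IFN-β library at 2 h. Dhx58 thus passed the filter on low counts only through the IFN-β libraries, and the size of its change rests on few vehicle footprints. At 14 h Oas1a, Dhx58 and Oas2 were among the genes that rose, with 0 to 2 footprints in each vehicle library. Their IFN-β libraries at 14 h held 826 to 3321, 265 to 978 and 167 to 736 footprints, and no fold is given on so few vehicle counts. Oas1a, Dhx58 and Oas2 passed the filter only through these libraries, so that they could enter the counts only by differing.

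The response differed between the time points for 6 of the 9 genes, 5 of them with a larger and 1 with a lower value at 14 h, where 30.9% of all genes were called (15.4% larger and 15.5% smaller). With the replicate number as a block, 7 of the 9 genes were called, and 6944 in place of 3867 of all 12508 genes. The test was the time-by-treatment interaction in the 16 footprint libraries, so that each response is set against the vehicle of its own time. The vehicle groups themselves differed in some markers (group means of 30.8 CPM at 2 h and 0.197 CPM at 14 h for Gfap, 13.3 and 2.61 CPM for Hes5, and 310.0 and 107 CPM for Cnp), and the part of the differing cultures in these comparisons was not tested. Helz2 and Mov10 grew the most, with differences of 3.25 (SE 0.70, adjusted p = 0.00229) and 1.85 (SE 0.21, adjusted p = 7.88e-06) on the log2 scale. Adar grew by 1.16 (SE 0.13, adjusted p = 5.85e-06), Cmpk2 by 1.00 (SE 0.30, adjusted p = 0.0178) and Xrn1 by 0.40 (SE 0.13, adjusted p = 0.0232). These differences hold the shifts of both groups, and the vehicle means of these 5 genes were lower at 14 h than at 2 h. For Cmpk2 the means at 2 h and 14 h were 6.21 and 4.00 CPM with vehicle and 287 and 363 CPM with IFN-β. For Helz2 they were 0.843 and 0.439 CPM with vehicle and 13.8 and 69.5 CPM with IFN-β. The call on Xrn1 was lost without vehicle replicate 2 at 14 h or IFN-β replicate 6 at 2 h (adjusted p = 0.0511 for each). Nt5c3 differed by -0.41 (SE 0.15, adjusted p = 0.0434), a call that was lost in 12 of the alternatives tried, with an adjusted p of up to 0.0978. With the replicate number as a block and all libraries kept, Xrn1 (0.41, adjusted p = 1.74e-04) and Nt5c3 (-0.39, adjusted p = 0.00361) stayed called.

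Apobec3, Isg20 and Pnpt1 were not called as different between the times. The interval of the difference was -0.35 to 0.85 for Apobec3 (0.25, adjusted p = 0.540), 0.23 to 2.50 for Isg20 (1.36, adjusted p = 0.0640) and -0.03 to 1.08 for Pnpt1 (0.53, adjusted p = 0.139). With the replicate number as a block, Pnpt1 was called (0.53, adjusted p = 3.96e-05). Pnpt1 was also called without vehicle replicate 3 at 2 h (0.72, adjusted p = 0.00859), Isg20 without vehicle replicate 1 at 14 h (1.70, adjusted p = 0.0264) or 5 at 2 h (1.63, adjusted p = 0.0299), and Apobec3 without IFN-β replicate 3 at 2 h (0.52, adjusted p = 0.0461).

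**Figure D3:**
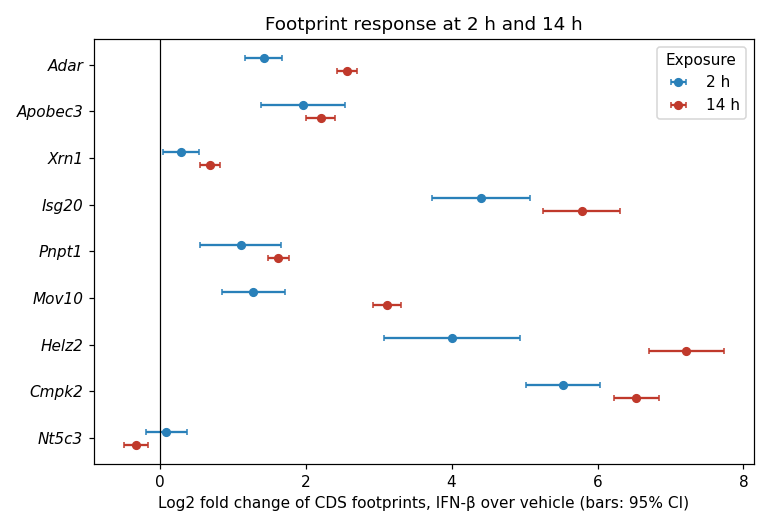
Log2 fold change of CDS footprints (IFN-β over vehicle) of the 9 genes at 2 h and at 14 h, with bars for the 95% interval from the edgeR fit of 4 libraries per group. The points at 14 h lie to the right of those at 2 h for 8 genes, and to the left for Nt5c3 (-0.32 against 0.09).

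Per length of coding sequence, IFN-β changed the order of the 9 genes. With vehicle, Nt5c3 had the highest density, 32.6 ± 5.46 CPM per kb of CDS (SD, n = 4) at 2 h and 36.1 ± 1.85 CPM per kb at 14 h, and its range did not overlap that of the next gene, Pnpt1. At 2 h Pnpt1, Apobec3 and Adar followed with 16.2, 16 and 13.8 CPM per kb and overlapping ranges. Xrn1 stood at 9.14, Cmpk2 at 4.63 and Mov10 at 3.29 CPM per kb, the latter pair overlapping. Isg20 (0.416 CPM per kb) and Helz2 (0.0943 CPM per kb) came last.

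With IFN-β, Cmpk2 had the highest density at both times, 214 ± 60.6 CPM per kb at 2 h and 271 ± 31.1 CPM per kb at 14 h, apart from all others. At 14 h Pnpt1 (79.2 CPM per kb) and Adar (72.8 CPM per kb) followed with overlapping ranges, and Apobec3 (55.1 CPM per kb) lay below them. Nt5c3, Isg20 and Mov10 stood at 28.8, 27.7 and 22.5 CPM per kb, with each overlapping its neighbour in this order. Xrn1 (12.8 CPM per kb) and Helz2 (7.78 CPM per kb) were lowest. Helz2 thus had the largest fitted fold change at 14 h and the lowest density of the 9 in every group.

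**Figure D4:**
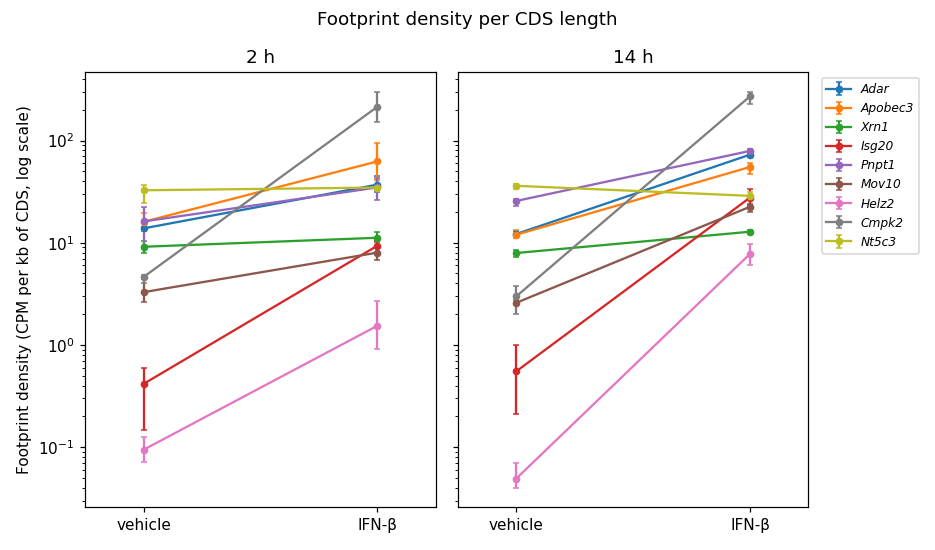
Footprint density in CPM per kb of CDS (log axis) with vehicle and IFN-β at 2 h and 14 h, points at the mean and bars from the lowest to the highest of 4 libraries. Cmpk2 passes all other genes with IFN-β, and Helz2 stays lowest.

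The genes whose log2 CPM ran most like those of the 9 genes over the 16 footprint libraries were looked for among 10314 genes. Pearson's r was 0.998 for Adar with Psmb10, an immunoproteasome subunit, and 0.997 with Ifi44. Cmpk2 ran with Stat2 and Gbp4 (r of 0.997 and 0.996), Helz2 with Adar and Trim34b (0.995 and 0.994), and Isg20 with Eif2ak2 and Zc3hav1 (0.994 for each). Mov10 ran with Herc6 and H2-Q4 (0.991 and 0.989) and Apobec3 with Myd88 and Dtx3l (0.986 and 0.984). Pnpt1 was closest to Tulp3 and Sptlc2 (0.981 and 0.979), Xrn1 to Kat2b and Fndc3a (0.964 and 0.961), and Nt5c3 to Luc7l2 and Cebpz (0.908 and 0.900). The 16 libraries fall into 4 groups and share their treatment, time and depth, so these values describe the pattern over groups and carry no test.

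Total RNA gave little on these genes, since few of its reads were counted on them. Actb had 30027 to 69583 footprints but 151 to 854 total RNA counts at 2 h, and Sox2 had none in any total RNA library beside 646 to 3537 footprints. Of 5539 protein-coding genes with a mean of at least 50 footprints per vehicle library and no gene on the opposite strand, 48.0% had a mean of under 10 total RNA counts per vehicle library at 2 h, as did 76.0% of 5516 at 14 h. Over these genes, Spearman's correlation of vehicle footprints with vehicle total RNA was 0.352 at 2 h and 0.247 at 14 h. The RNA kit was directional and the strand setting of the counting is not given in the sources used here, so the total RNA values below and the translational efficiency built on them are limited by this.

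In total RNA 6 of the 9 genes could be tested at 2 h and 5 at 14 h, and Cmpk2 was the only one called, where 0.799% of all genes were called at 2 h (0.722% higher) and 6.3% at 14 h (3.47% higher). At 2 h it had 4, 7, 3 and 3 counts with vehicle and 123, 171, 83 and 81 with IFN-β. The counts at 14 h were 1, 3, 1 and 1 with vehicle and 19, 25, 25 and 30 with IFN-β. The groups were far apart, with log2 fold changes of 4.54 (SE 0.36, adjusted p = 4.91e-05) at 2 h and 3.51 (SE 0.49, adjusted p = 1.99e-04) at 14 h, and Cmpk2 passed the filter only through the IFN-β libraries.

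Apobec3 had the most total RNA counts of the 9 genes. At 2 h these were 39.9, 29.7, 36.8 and 34.1 CPM with vehicle and 52.1, 60.8, 51.6 and 44.3 CPM with IFN-β, which did not overlap, as in 2.82% of all genes with IFN-β above (log2 fold change 0.57, 95% interval 0.08 to 1.07, adjusted p = 0.556). The levels at 14 h were 64.9 to 79.3 CPM with vehicle and 53.8 to 68.4 CPM with IFN-β, which overlapped (-0.19, 95% interval -0.58 to 0.19, adjusted p = 0.619). At 14 h the intervals of Xrn1 (-0.66 to 0.34), Mov10 (-0.35 to 1.44) and Nt5c3 (-1.55 to -0.15, adjusted p = 0.161) were wide. Adar at 2 h had 6, 35, 4 and 11 counts with vehicle and 52, 37, 38 and 16 with IFN-β (1.22, adjusted p = 0.514), and was called without vehicle replicate 3 (2.07, adjusted p = 0.0309).

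The remaining values rest on single counts. Adar at 14 h had 3 counts over the vehicle group and 25 over the IFN-β group, a ratio of 6.10 with a 95% counting interval of 1.86 to 31.6. Isg20 had 2 and 23 counts at 2 h (ratio 10.3, interval 2.56 to 90.5) and 0 and 10 at 14 h, at least 2.44-fold higher with the vehicle group set to a floor of 3 counts. Helz2 had 3 and 1 counts at 2 h and 1 and 6 at 14 h, with intervals of 0.00571 to 3.73 and 0.533 to 202. Pnpt1 had 1 to 18 counts per library and did not pass the filter. Counting intervals cover counting error only.

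Translational efficiency (TE) is the response of footprints relative to that of total RNA, tested as the interaction of treatment and kind of library at an adjusted p under 0.1. At 2 h Apobec3 was the 1 gene of the 9 called, with a change in TE of 1.43 on the log2 scale (SE 0.32, adjusted p = 0.0437), where 0.815% of all genes were called (0.581% higher). This call was lost without vehicle replicate 2, 5 or 6 or IFN-β replicate 2 or 5 (adjusted p of 0.154 to 0.243). With library totals as the only scaling, the median of all genes moved from -0.04 to -0.38 and Apobec3 from 1.43 to 1.10 (adjusted p = 0.758).

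At 14 h, 5 of the 9 genes were called with a higher TE, beside 4.49% of all genes higher and 8.45% in either direction. These were Apobec3 (2.34, SE 0.17, adjusted p = 6.48e-10), Mov10 (2.47, SE 0.41, adjusted p = 3.15e-04), Xrn1 (0.83, SE 0.20, adjusted p = 0.0109), Pnpt1 (2.13, SE 0.57, adjusted p = 0.0234) and Cmpk2 (2.91, SE 0.81, adjusted p = 0.0313). The calls on Pnpt1 and Cmpk2 were lost without vehicle replicate 2 (adjusted p = 0.236 and 0.291), and that on Cmpk2 without vehicle replicate 3 (0.107). These 2 calls rest on few total RNA counts, 1 to 10 per vehicle library for Pnpt1 and 1 to 3 for Cmpk2. The call on Mov10 also rests on few, 5 to 11 per vehicle library. Xrn1 had 7 to 47 and Apobec3 47 to 182. Pnpt1 did not pass the filter in total RNA and entered the TE test through its footprints. With the replicate number as a block, Xrn1 changed by 0.80 and was not called (adjusted p = 0.160). Apobec3 and Xrn1 share exonic bases with genes on the opposite strand. Per vehicle library at 14 h, Cbx7, opposite Apobec3, had 3 to 6 total RNA counts, and Gm16794, opposite Xrn1, had 5 to 24. The part of these overlaps in the TE values was not tested. For Nt5c3 the change in TE was 0.45 (95% interval -0.15 to 1.06, adjusted p = 0.457). No TE is given for Adar at 14 h or for Isg20 and Helz2, whose vehicle groups held 0 to 3 total RNA counts.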

How the data were processed

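The authors trimmed reads, aligned them with bowtie to the mouse transcriptome (mm10, GRCm38) and counted them per gene with SummarizeOverlaps after removing duplicates. The submitters' processing notes name Trim Galore 0.4.4 and Bowtie 0.12.7. The deposited values are raw counts, of footprints in the CDS and of total RNA in the gene body, with no normalization; the strand setting is not given in the sources used here. Samples were grouped by their titles. The paper describes replicates as different mice or cultures from different mice.

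A gene entered a comparison if 4 or more of its libraries reached 10 counts. Tests were run in R 4.3.3 with edgeR 4.0.16 (TMM scaling, quasi-likelihood test, two-sided, Benjamini-Hochberg adjustment) without a replicate block. SEs and 95% intervals follow from the log2 fold change and the F statistic. limma 3.58.1 (voom) and DESeq2 1.42.0 were alternatives, as were no filter, a mean of at least 50 counts, library totals as the scaling, a replicate block, all 16 footprint libraries in 1 fit, and leaving out each library. Leaving out an IFN-β library with the tested genes kept was added after seeing the data. The scripts were tested on simulated data. For likeness, log2(CPM + 0.5) was used.

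In footprints, the deviations of same-numbered vehicle and IFN-β libraries from their group means correlated at 0.345 to 0.821 (2 h) and 0.203 to 0.434 (14 h) over all pairs, so the numbers were taken to pair them. Symbols, positions and CDS lengths are those of GENCODE M21, and promoters those of RefSeq. From each related list, called genes averaging 50 footprints or more, at most 3 higher and 3 lower by log2 fold change at each time, were named, with Rsad2, Cmpk1, Nt5c3b, Xrn2 and Adarb1 always; 1 further gene of this rule is not reported here. The 9 genes, the lists and the promoter letters were chosen with earlier results of these data known.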

Additional observations from a re-analysis of the deposited data

Results flagged for a closer look

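Single libraries stood apart from the other 3 of their group in 4 of 58 groups tested with Dixon's test, which chance marks in about 1 of 20 groups. Adar total RNA in vehicle replicate 3 at 2 h was 5.91 CPM beside 1.24 to 1.74 CPM in the others, and Xrn1 total RNA in IFN-β replicate 1 at 14 h was 9.99 CPM beside 13.9 to 14.3 CPM. In footprints, Cmpk2 in vehicle replicate 5 at 2 h was 5.43 CPM beside 6.44 to 6.49 CPM, and Helz2 in vehicle replicate 3 at 14 h was 0.619 CPM beside 0.359 to 0.399 CPM, a difference of 1 to 3 footprints in the counts.

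The footprint response to IFN-β differed between 14 h and 2 h, by the interaction test in edgeR, by 1.16 for Adar, 0.40 for Xrn1, 1.85 for Mov10, 3.25 for Helz2, 1.00 for Cmpk2 and -0.41 for Nt5c3 on the log2 scale.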

How the results depend on the processing

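The footprint changes of all 9 genes at 14 h kept their direction and their call under every alternative that could test them. With 1 library left out, 4 to 7 genes were called in footprints at 2 h, 7 to 9 at 14 h, 4 to 7 for the difference between the times, 0 to 2 and 0 to 1 in total RNA at 2 h and 14 h, and 0 to 1 and 3 to 5 in TE. Without 1 IFN-β library, Isg20 and Helz2 in footprints and Cmpk2 in total RNA no longer passed the filter on low counts; with the tested genes kept, 6 to 7 and 9 genes were called in footprints and 1 in total RNA at each time. With a mean of at least 50 counts, 0 genes were called in total RNA at 14 h, where Cmpk2 was not tested, and 1 in TE at 14 h. In that TE fit, 1 of the 9 genes could be tested. In TE at 2 h, DESeq2 and limma-voom called 2 genes, Apobec3 and Helz2, and library totals alone 0. Helz2 had 3 total RNA counts over the vehicle group and 1 over the IFN-β group at 2 h, so its value is not a measure of TE. For Isg20 TE at 14 h, edgeR fitted -0.03 and limma-voom 3.68 on 0 vehicle counts, and neither is a measure of TE. Nt5c3 between the times was lost with no filter (adjusted p = 0.0644), with library totals (0.0531) and without any 1 of 10 libraries.

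With the replicate number as a block, 8 genes were called in footprints at 2 h, and 3538 in place of 878 of all genes. The block changed no calls but those given above for Xrn1 and Pnpt1. The total RNA libraries were not paired by this measure, with correlations of -0.483 to 0.389 at 2 h and -0.010 to 0.246 at 14 h. Total RNA and TE rest on few counts per gene, in libraries of 1370008 to 7877753 counts, and the parts of depth and of the strand setting in this were not tested.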
